A study of Mus musculus with 4 samples.

Results

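The genes described here are 8 members of the apoptotic protease pathway, taken from the 56350 genes of the deposited counts table by symbol: the caspase genes Casp2, Casp6, Casp8 and Casp9, the inhibitor of apoptosis (IAP) genes Birc2, Birc3 and Xiap, and Diablo, whose product binds the IAPs. RNA came from EO771, a mammary carcinoma cell line of C57BL/6 mice grown in culture. The libraries labelled untreated (n = 2) came from cells without the compound, which the protocol calls vehicle control, and those labelled BML-210 (n = 2) from cells given BML-210 at 1.0 µM for 48 h. In the sample titles the former are named EO771 WT and the latter EO771 BML-210. The compound inhibits histone deacetylases, enzymes that strip acetyl groups from histones. No label says whether the 2 libraries of a group came from separate cultures, so p-values measure only the spread between these libraries, which may be technical. The study compares expression with and without the compound, and directions below read from the untreated label to the BML-210 label. The library codes carry D for the group labelled untreated and V for the group labelled BML-210, and no gene was targeted that could check the labels, so each direction rests on the labels alone.

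Gene counts summed to between 13167893 and 16534667 per library. Mitochondrial genes took 5.05% to 5.57% of counts in a library, and the most abundant gene, Gm26917, took 5.52% and 6.41% in the group labelled untreated and 4.04% and 4.45% in the other. Of 9 epithelial markers, Krt8 had 374 to 716 counts per library and the summed level, as counts scaled to library size (CPM), was 46.2 to 51.4 in the group labelled untreated and 29.9 to 34.5 in the other. Apart from Krt8, no epithelial marker exceeded 16 counts in a library, with Epcam at 1 to 3 and Krt18 at 0 to 2, although the line is labelled mammary. Of 10 macrophage and leukocyte markers, the sum was 5.83 to 7.91 CPM in the group labelled untreated and 3.86 to 4.85 CPM in the other. C1qc had 0 counts in all 4 libraries, and Lyz2 had 24 to 49 per library. Adgre1 had 33 and 13 counts in the libraries labelled untreated and 1 and 4 in those labelled BML-210. Of 3 markers in this list with enough counts to be tested, 1 was called lower and 0 higher. The lower one was Adgre1 (log2 fold change -2.98, edgeR adjusted p = 3.83e-05). The sum of 3 T cell markers was 0.0714 to 0.437 CPM and overlapped between the groups, and that of 3 endothelial markers was 6.12 and 7.49 CPM in the group labelled untreated and 7.56 and 8.55 CPM in the other. The part of these marker differences in the results below was not tested.

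Caspases are proteases that lie dormant in living cells. Initiator caspases are switched on within protein platforms: caspase-8 under death receptors through the adaptor FADD, caspase-9 in the apoptosome built by APAF1 and released cytochrome c, and caspase-2 in the PIDDosome. Executioner caspases such as caspase-6 then cut cell proteins. XIAP binds and blocks caspases directly. The products of Birc2 and Birc3, cIAP1 and cIAP2, are mainly ubiquitin ligases that modify RIPK1 under the tumour necrosis factor receptor and restrain non-canonical NF-kappaB signalling. Diablo (also called Smac) leaves mitochondria during apoptosis and displaces caspases from IAPs.

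Sequence before the RefSeq start is shown for 2 pairs of members because the genes of each pair are close in role and differed in their result below: the neighbouring cIAP genes Birc3 and Birc2, and the initiator caspase genes Casp8 and Casp9. Each window is the 250 bases before the RefSeq start (GRCm38.p6, the assembly of mm10; for Birc2 the outer of 2 starts), written 5′ to 3′ on the gene's strand, with CG dinucleotides in capitals.
Birc3 (chr9:7873171-7873420, minus strand): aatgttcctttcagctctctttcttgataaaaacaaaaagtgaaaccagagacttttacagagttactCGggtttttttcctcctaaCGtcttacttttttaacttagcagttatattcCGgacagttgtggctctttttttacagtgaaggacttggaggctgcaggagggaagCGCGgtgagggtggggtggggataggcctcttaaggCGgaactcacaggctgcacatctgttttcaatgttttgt
Birc2 (chr9:7837058-7837307, minus strand): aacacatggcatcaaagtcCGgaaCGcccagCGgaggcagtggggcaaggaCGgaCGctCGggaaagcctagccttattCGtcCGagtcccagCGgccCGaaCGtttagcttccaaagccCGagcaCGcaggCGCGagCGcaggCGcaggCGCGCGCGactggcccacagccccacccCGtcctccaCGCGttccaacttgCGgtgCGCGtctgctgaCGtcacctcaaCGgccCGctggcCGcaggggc
Casp8 (chr1:58802252-58802501, plus strand): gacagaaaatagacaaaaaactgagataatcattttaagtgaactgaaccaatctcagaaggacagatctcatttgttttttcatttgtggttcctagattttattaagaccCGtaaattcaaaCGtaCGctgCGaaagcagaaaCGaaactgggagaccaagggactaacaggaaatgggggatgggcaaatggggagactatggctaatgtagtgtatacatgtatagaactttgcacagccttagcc
Casp9 (chr4:141793362-141793611, plus strand): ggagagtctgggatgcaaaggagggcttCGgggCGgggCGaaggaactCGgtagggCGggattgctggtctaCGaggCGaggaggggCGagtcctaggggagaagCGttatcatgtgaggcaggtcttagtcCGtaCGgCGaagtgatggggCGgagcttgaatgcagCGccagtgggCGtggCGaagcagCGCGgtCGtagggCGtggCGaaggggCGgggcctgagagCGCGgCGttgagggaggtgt
The RefSeq start of Casp8 lies 7.13 kb inside the Casp8 gene of the deposited table, so that window is intronic in the gene model counted here, and the outer start of that model is not shown. The Birc3 window held 6 CG dinucleotides (GC content 43.6%) and the Casp8 window 5 (39.6%), against 31 in the Birc2 window shown (68.4%) and 25 in the Casp9 window (66%). The window of the inner Birc2 start, which is exonic in the deposited model, had 19 CG dinucleotides and a GC content of 61.2%. Over 32851 RefSeq promoter windows of the same length the median was 6 CG dinucleotides and the upper quartile 16, and the median GC content was 52.4%. In CG count the Birc3 window was thus at the median, and the Birc2 window shown and the Casp9 window were above the upper quartile. Since the pairs were chosen by their result, this contrast is no test, and a link of CG count to the result was not tested. The other members did not all divide in the same way. Among those called higher below, Casp2 had 17 CG dinucleotides. The 3 windows of Xiap, also called higher and all inside the deposited gene, had 13, 1 and 1. Among those not called, Casp6 had 11 and Diablo 30. Of the 11 windows that RefSeq gives for the 8 genes, 0 held the NF-kappaB consensus on either strand, and 3.9% of all windows held it. At that share 11 windows are too few to set the members apart from other genes. Sites outside the windows, or that depart from the consensus, were not searched for. The motif GGGCGG occurred 4 times in the Casp9 window and in none of the other 3 windows shown, but 2 times in the window of the inner Birc2 start, and 32.7% of all windows held it. In the deposited gene models 16 of the 250 bases for Birc3 and 7 for Birc2 are exonic.

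With the BML-210 label, 4 of the 8 genes were higher and 0 were lower. Birc3 rose 2.24-fold, and smaller rises were found for Casp2 (1.31-fold), Xiap (1.27-fold) and Casp8 (1.24-fold). The apoptosome caspase gene Casp9, the executioner Casp6, the cIAP1 gene Birc2 and Diablo did not pass. The test was edgeR's quasi-likelihood test, with p-values adjusted by Benjamini-Hochberg over the 14455 genes tested and called below 0.05. In RNA from whole cultures, a different share of cells with a message and a different amount of it per cell cannot be told apart. Over all tested genes 46.4% were called, 22.9% higher and 23.5% lower, so 4 of 8 members is close to the share among all genes. The median log2 fold change was 0.22 over the members and -0.0025 over all tested genes. At an unadjusted p below 0.05, too, 4 members were higher and 0 lower, and DESeq2 and limma-voom each called 4 higher and 0 lower. Among the 14455 genes tested, DESeq2 called 4335 (2205 higher and 2130 lower), a smaller share than in edgeR. With limma-voom 6629 were called (3263 higher and 3366 lower). The share of all genes at an unadjusted p below 0.05 is not given here. The CPM of the 2 groups did not overlap for 6 of the 8 genes, against 71.3% of all tested genes.

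**Figure D1:**
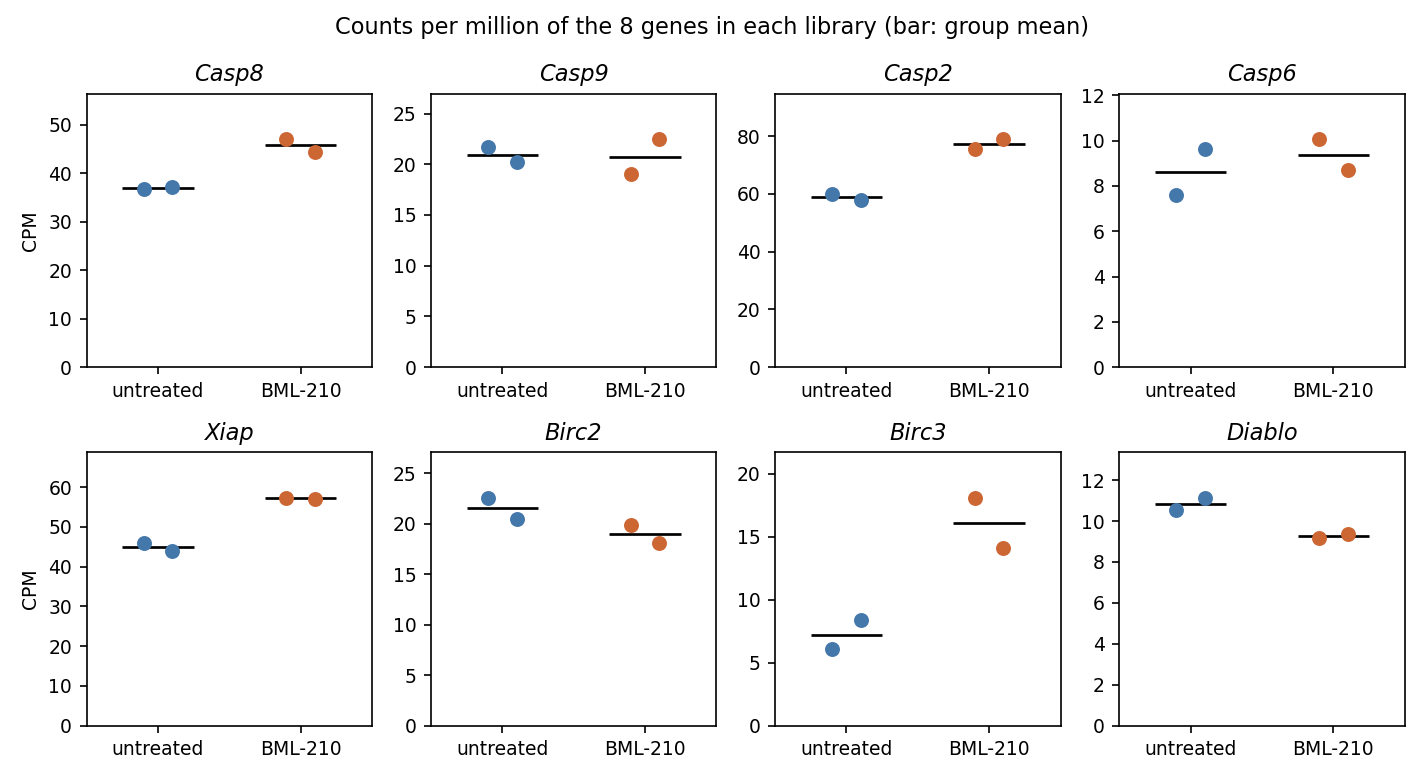
CPM (y axis from 0, with its own scale for each gene) in each library for the 8 genes, by group, with a bar at the group mean. The groups are apart for Casp8, Casp2, Xiap, Birc2, Birc3 and Diablo and overlap for Casp9 and Casp6, and the widest gap relative to its level is that of Birc3.

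Among the initiator caspases, Casp8 (ENSMUSG00000026029.14, chromosome 1, 58795374 to 58847503, mm10) was at 36.7 and 37.1 CPM in the libraries labelled untreated and at 47.0 and 44.4 CPM in those labelled BML-210. Both libraries labelled BML-210 lay above both of the others. On the log2 scale Casp8 rose by 0.31 ± 0.07 (SE), with an edgeR adjusted p of 2.26e-04.

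Casp2 (ENSMUSG00000029863.13, chromosome 6, 42264985 to 42282508), the initiator of the PIDDosome, was at 59.9 and 58.1 CPM in the libraries labelled untreated and at 75.5 and 79.0 CPM in those labelled BML-210. The gap between the groups was several times the distance between the libraries of a group. The rise was 0.39 ± 0.06 (SE) on the log2 scale, with an edgeR adjusted p of 3.92e-08 and a 95% interval of 1.21-fold to 1.42-fold.

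Casp9 (ENSMUSG00000028914.13, chromosome 4, 141793612 to 141815976) was at 21.7 and 20.2 CPM in the libraries labelled untreated and at 19.0 and 22.5 CPM in those labelled BML-210. The libraries labelled BML-210 held both the lowest and the highest value. The fitted difference was -0.02 ± 0.10 (log2, SE), its edgeR adjusted p was 0.919 and its 95% interval ran from 0.858-fold to 1.14-fold. Its exons share 94 bases each with Cela2a and Ctrc on the opposite strand, which had 0 or 1 counts per library. A rise of the size fitted for Casp2 lies outside that interval, although the difference between the 2 genes was not tested.

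Casp6 (ENSMUSG00000027997.9, chromosome 3, 129901425 to 129914103), the executioner caspase that cuts lamin A, had only 122 to 133 counts per library. It was at 7.61 and 9.61 CPM in the libraries labelled untreated and at 10.1 and 8.71 CPM in those labelled BML-210, and the groups overlapped. The 95% interval of its change, 0.884-fold to 1.36-fold (log2 fold change 0.13 ± 0.16, SE; edgeR adjusted p = 0.515), includes the changes fitted for Casp2 and Casp8.

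Of the inhibitors, Birc3 (ENSMUSG00000032000.17, chromosome 9, 7848699 to 7873186), which encodes cIAP2, had 100 and 115 counts in the libraries labelled untreated and 239 and 197 in those labelled BML-210. Scaled, these were 6.09 and 8.38 CPM against 18.1 and 14.1 CPM. The higher library labelled untreated stayed well below the lower library labelled BML-210, but the libraries within each group were also further apart, relative to their level, than those of Casp2 or Xiap. Birc3 rose by 1.16 ± 0.15 (SE) on the log2 scale (adjusted p of 1.23e-09 in edgeR), with a 95% interval of 1.83-fold to 2.75-fold. It was larger in size than that of 94.9% of tested genes. Leaving out single libraries gave 0.93 to 1.40, each called.

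Xiap (ENSMUSG00000025860.15, chromosome X, 42059679 to 42109656), the direct caspase inhibitor, was at 46.1 and 43.9 CPM in the libraries labelled untreated and at 57.4 and 56.9 CPM in those labelled BML-210. The groups were apart and each was tight. It rose by 0.34 ± 0.06 (SE) on the log2 scale (adjusted p of 7.32e-06 in edgeR), and the intervals of Xiap, Casp2 and Casp8 overlap.

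Birc2 (ENSMUSG00000057367.12, chromosome 9, 7818227 to 7837064), which encodes cIAP1, lies 11.6 kb from Birc3 on the same strand. It was at 22.6 and 20.5 CPM in the libraries labelled untreated and at 19.9 and 18.1 CPM in those labelled BML-210. Both values labelled BML-210 were below both of the others, by less than the distance between libraries of a group. The fitted difference, -0.19 ± 0.10 (log2, SE), did not pass with an adjusted p of 0.137 in edgeR, and its 95% interval of 0.761-fold to 1.01-fold holds no rise like that of its neighbour.

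Diablo (ENSMUSG00000029433.16, chromosome 5, 123509765 to 123524176), the IAP antagonist, was at 10.5 and 11.1 CPM in the libraries labelled untreated and at 9.16 and 9.35 CPM in those labelled BML-210. The groups did not overlap, and counts were 121 to 173 per library. The log2 fold change of -0.22 ± 0.14 (SE) did not pass (edgeR adjusted p = 0.202). The assignment of reads to Diablo is also the least certain of the 8. Exons of Diablo share 1326 bases with B3gnt4 on the opposite strand and 1193 bases with Gm49027 on its own strand, 21.5% and 19.3% of its exonic length, and the sources used here do not say how reads in shared exons were assigned. These partners had 0 to 6 counts per library. Among 100-base windows of its annotated transcripts, 33.5% also occur, on either strand, in transcripts of other genes. These genes include B3gnt4 and Gm49027, so this share is not separate from the exon overlaps. For the other 7 members that share was at most 1.76%, reached by Birc3, whose shared windows lie in Birc2 and Gm7019, so reads common to both cIAP genes are few.

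**Figure D2:**
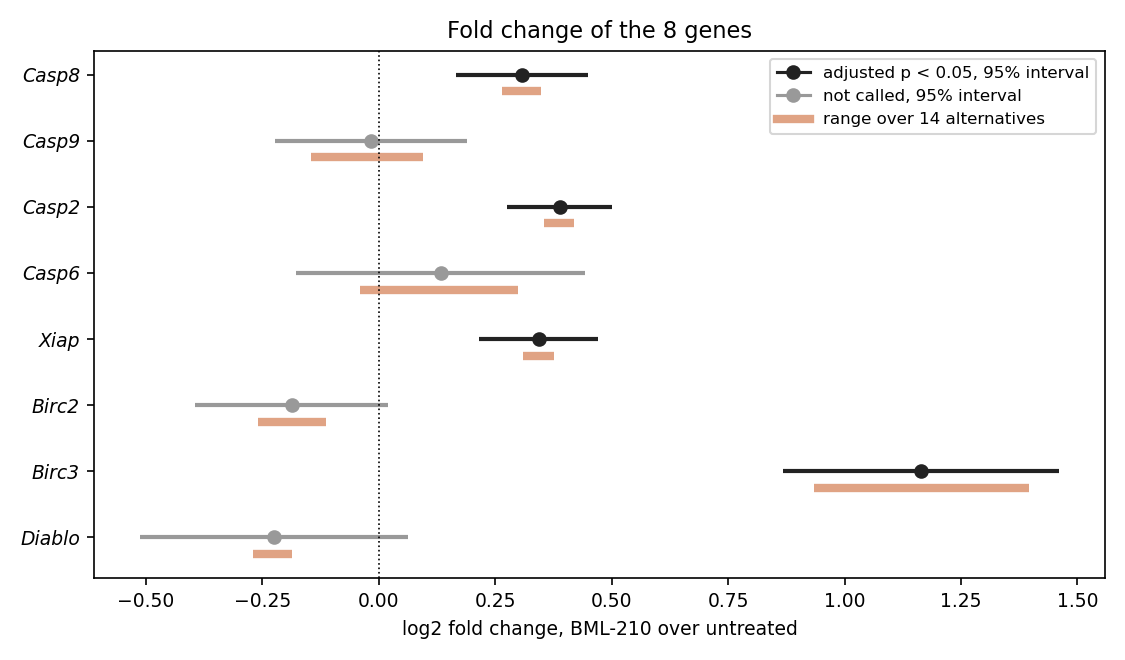
Log2 fold change of the 8 genes (x axis; points with 95% intervals, black where the adjusted p was below 0.05 and grey where it was not) and, as orange bars, the range of the fold change over 14 alternative analyses. The intervals of Casp8, Casp2, Xiap and Birc3 lie above 0, and the ranges of Casp9 and Casp6 cross 0.

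Levels of different genes were compared per kilobase of exon (RPKM, from the same scaled counts and the deposited exonic length). In the libraries labelled untreated the order was Casp8 (12.8 ± 0.109 RPKM, SD, n = 2), Casp2 (8.36 ± 0.184), Xiap (4.75 ± 0.161), Birc2 (4.70 ± 0.326), Casp9 (4.03 ± 0.193), Diablo (1.76 ± 0.0705), Casp6 (1.54 ± 0.254) and Birc3 (1.44 ± 0.323). Xiap and Birc2 overlapped in level, as did Diablo with Casp6 and Casp6 with Birc3. In the libraries labelled BML-210 Casp8 (15.8 ± 0.641 RPKM, SD, n = 2), Casp2 (10.9 ± 0.353) and Xiap (6.04 ± 0.0323) again led, and Birc2 (4.14 ± 0.286) and Casp9 (3.99 ± 0.473) overlapped. Birc3, with the lowest mean in the other group, was at 3.21 ± 0.569 RPKM, above Casp6 (1.68 ± 0.172) and Diablo (1.49 and 1.52 in the 2 libraries). The exonic length counts every annotated exon, so a gene with many alternative exons appears lower on this scale.

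**Figure D3:**
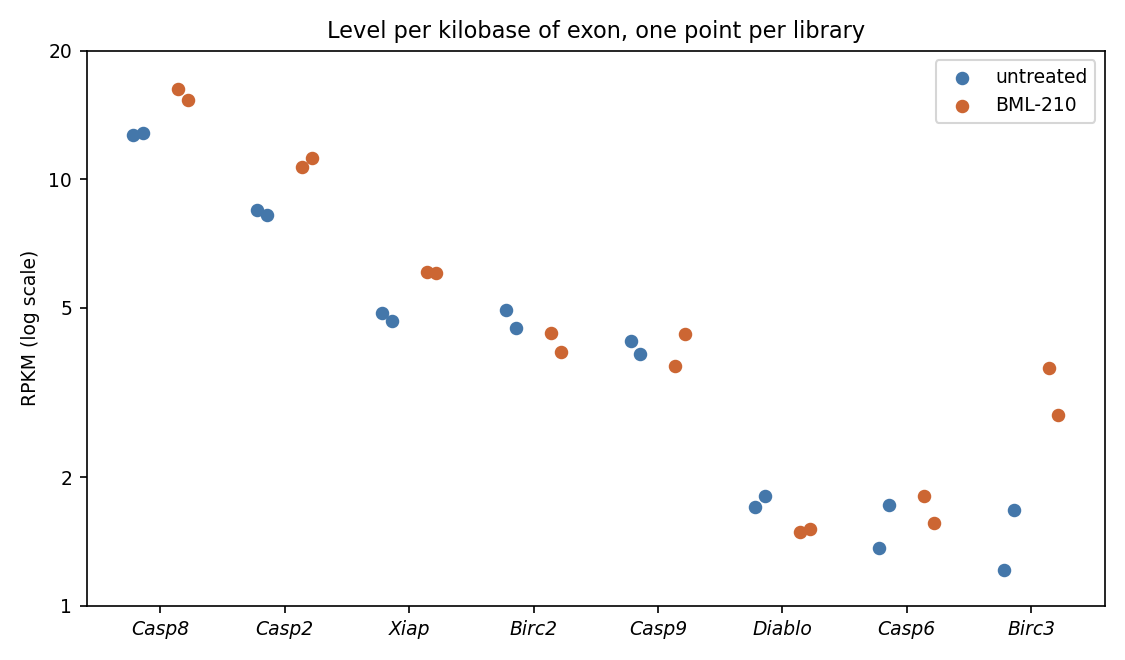
RPKM (log axis) of the 8 genes in each library, ordered by their mean in the libraries labelled untreated (blue) beside those labelled BML-210 (orange). Casp8 and Casp2 are the highest in both groups, and Birc3 lies at 1.22 and 1.67 RPKM in the first group and at 3.61 and 2.81 RPKM in the second.

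Ratios between 2 genes within a library do not depend on library scaling. The ratio of Birc3 to Birc2, per kilobase, was 0.246 and 0.374 in the libraries labelled untreated and 0.831 and 0.712 in those labelled BML-210. The cIAP2 message was thus far below the cIAP1 message in the first group and nearer to it in the second. The ratio of Xiap to its antagonist Diablo was 2.85 and 2.57 against 4.08 and 3.97, and that of Birc3 to Xiap 0.250 and 0.361 against 0.596 and 0.467. For Cflar, which encodes the caspase-8 inhibitor c-FLIP, the ratio to Casp8 was 0.526 and 0.484 against 0.408 and 0.442. All 4 ratios were apart between the groups, but 2 libraries against 2 cannot give a two-sided exact permutation p below 0.333, which each of them reached. The Diablo ratio carries the uncertainty of the Diablo count.

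**Figure D4:**
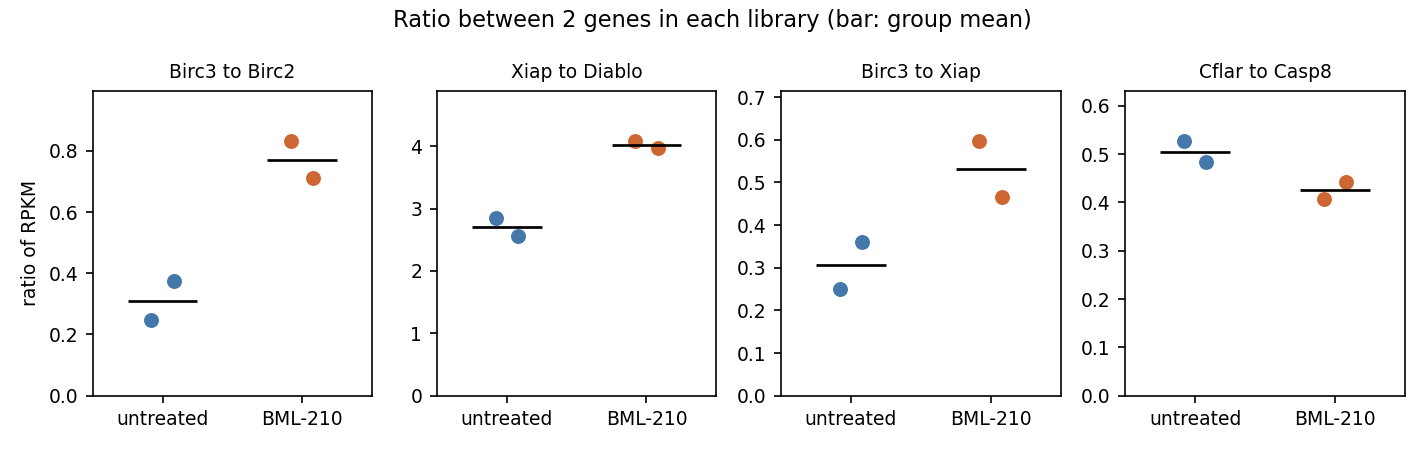
Ratio of the RPKM of 2 genes (y axis from 0) in each library, with a bar at the group mean. The ratios of Birc3 to Birc2, Xiap to Diablo and Birc3 to Xiap are higher in both libraries labelled BML-210, and that of Cflar to Casp8 is lower.

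Around the 8 members, 7 lists of 66 other genes of cell death were examined, of which 56 had enough counts to be tested. Of these, 19 were higher and 12 lower (55.4% called, against 46.4% of all tested genes), with a median log2 fold change of 0.08. In single lists 0% to 62.5% of tested genes were called. The counts per list below stand beside 22.9% higher and 23.5% lower among all tested genes in edgeR. In DESeq2 the background was 4335 of 14455 genes. No list was tested as a set. Among 4 tested caspases outside the members, 2 were higher and 0 lower, with the same counts at an unadjusted p below 0.05, in DESeq2 and in limma-voom. These were genes of inflammatory and stress-linked caspases: Casp4, from 21.8 to 32.9 CPM (log2 fold change 0.59 ± 0.09, SE; edgeR adjusted p = 1.31e-07), and Casp12, from 4.27 to 7.78 CPM (0.88 ± 0.19; edgeR adjusted p = 1.34e-04).

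Of 8 tested genes for other BIR-domain proteins and IAP antagonists, 3 were higher and 2 lower (median -0.03), and 2 and 1 in DESeq2. Birc5, which encodes the mitotic protein survivin, rose by 0.49 on the log2 scale, from 39.0 to 54.8 CPM (edgeR adjusted p = 6.51e-09), and the giant ubiquitin ligase gene Birc6 rose by 0.18, from 563 to 637 CPM (edgeR adjusted p = 3.04e-07). The inflammasome sensor genes Naip6 (-0.44) and Naip2 (-0.24) fell (edgeR adjusted p = 0.00104 and 0.00165). The Naip genes are close copies of each other, so single members are uncertain, and both calls were lost in some alternatives: Naip6 without untreated replicate 1 (adjusted p = 0.0795), Naip2 without BML-210 replicate 2 (0.0685) and in DESeq2 (0.0641). The adjusted p of Naip6 lay between 1.14e-04 and 0.0795 over the 14 alternatives, and that of Naip2 between 4.36e-04 and 0.0685. Htra2, whose product is another mitochondrial IAP antagonist beside Diablo, was at 31.5 and 30.7 CPM and did not pass (edgeR adjusted p = 0.748). Exons of Htra2 share 753 bases with Aup1 on the opposite strand, which had 1162 to 1415 counts per library.

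On the death receptor side, which leads to caspase-8, 4 of 8 tested genes were higher and 1 lower (median 0.18), and 3 and 1 in DESeq2. The kinase gene Ripk1, whose product the cIAPs modify, rose from 23.3 to 36.0 CPM (log2 fold change 0.62 ± 0.08, SE; edgeR adjusted p = 8.80e-09), and Casp8ap2, which encodes a caspase-8 binding nuclear protein, rose by 0.45. Fadd, the adaptor that carries caspase-8, rose from 5.99 to 10.9 CPM (0.86; edgeR adjusted p = 6.39e-06), with the call kept in all 14 alternatives. The receptor gene Fas was called higher (0.28; edgeR adjusted p = 0.013), but not in DESeq2 (0.134), without untreated replicate 1 (0.096) or when BML-210 replicate 2 was left out (0.126), in a range of 0.00841 to 0.134 over the alternatives. Tradd, the adaptor of tumour necrosis factor receptor 1, fell by 0.49 (edgeR adjusted p = 9.80e-06). Cflar was at 81.7 ± 4.14 and 84.9 ± 1.39 CPM (SD, n = 2) and did not pass (log2 fold change 0.05, edgeR adjusted p = 0.42). Exons of Ripk1 share 241 bases with Serpinb6a on the opposite strand, which had 823 to 1180 counts per library. They also share 511 bases (6.12%) with Gm17084 on the same strand, which had 0 counts in each library. Exons of Fadd share 239 bases (6.12%) with Faddos on the opposite strand, which had 0 or 1 counts per library. Exons of Birc6, Cradd, Aifm2 and Parp1 share at most 5.65% of their bases with other genes, each with 0 to 6 counts per library.

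In the list of apoptosome, PIDDosome and mitochondrial release genes, 1 of 7 was higher and 3 were lower (median 0.02), and DESeq2 called 0 higher and 3 lower. Apaf1, the scaffold of the apoptosome, was at 70.7 and 69.9 CPM in the libraries labelled untreated and at 52.8 and 53.6 CPM in those labelled BML-210, with no overlap (log2 fold change -0.40 ± 0.06, SE; edgeR adjusted p = 3.59e-08). Cycs, which encodes cytochrome c, fell from 62.2 to 50.6 CPM (-0.30; edgeR adjusted p = 3.38e-05). The messages of both partners of caspase-9 in the apoptosome were thus called lower, as were 23.5% of all tested genes. Casp9 itself did not pass. A change of the apoptosome was not tested. The ferroptosis suppressor gene Aifm2 fell further, from 24.9 to 13.4 CPM (-0.89; edgeR adjusted p = 2.78e-10).

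Cradd, which links PIDD1 to caspase-2, was called higher (0.58; edgeR adjusted p = 0.0302), but the call depended on single libraries: the log2 fold change was 0.17 without untreated replicate 1 (adjusted p = 0.619), 1.07 without untreated replicate 2, and 0.49 (adjusted p = 0.159) when BML-210 replicate 2 was left out, and DESeq2 did not call it (adjusted p = 0.23). Over the 14 alternatives its adjusted p ran from 4.43e-04 to 0.619. Pidd1 was at 3.35 and 4.85 CPM and did not pass (0.52; edgeR adjusted p = 0.0502), although it did in 6 of 14 alternatives (0.0366 to 0.252 over all of them).

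Of 10 tested ubiquitin partners of the cIAPs, 4 were higher and 2 lower (median 0.15), and 2 and 1 in DESeq2. Tnfaip3, which encodes the NF-kappaB-restraining enzyme A20, rose from 34.4 to 54.9 CPM (0.67 ± 0.07, SE; edgeR adjusted p = 1.54e-12), and Traf1, an adaptor that binds cIAPs, rose by 0.58 (edgeR adjusted p = 3.16e-04). The deubiquitinase gene Cyld fell by 0.24 (edgeR adjusted p = 2.29e-05). Rnf31, a subunit of the linear ubiquitin ligase, was called lower (-0.25; edgeR adjusted p = 0.0171), but not without BML-210 replicate 1 (-0.15, adjusted p = 0.288), without untreated replicate 2 (0.0503) or in DESeq2 (0.166), within a range of 0.00508 to 0.288 over the alternatives. Rnf31 shares 123 exonic bases with Irf9 on the same strand, and Irf9 had 67 and 68 counts in the libraries labelled untreated and 147 and 190 in those labelled BML-210.

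Of 15 tested caspase substrates and execution genes, 5 were higher and 4 lower (median 0.07), and 4 and 2 in DESeq2. The pyroptosis pore gene Gsdmd (0.80) and the lamin gene Lmnb1 (0.41) rose (edgeR adjusted p = 1.37e-06 and 2.35e-07). The lamin A gene Lmna went the other way and was called lower (-0.21; edgeR adjusted p = 0.007), but not in DESeq2. Dffa, which encodes the caspase-cleaved inhibitor of the DNA fragmentation nuclease, fell from 15.4 to 9.02 CPM (-0.77; edgeR adjusted p = 1.92e-06), and Parp1, a DNA repair enzyme cut during apoptosis, fell by 0.21 (edgeR adjusted p = 6.66e-05). In the necroptosis and inflammasome list, 0 of 4 tested genes were called by edgeR, 0 had an unadjusted p below 0.05, and DESeq2 and limma-voom also called 0. The RNA shows the level of each message and not the cleavage of any caspase.

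**Figure D5:**
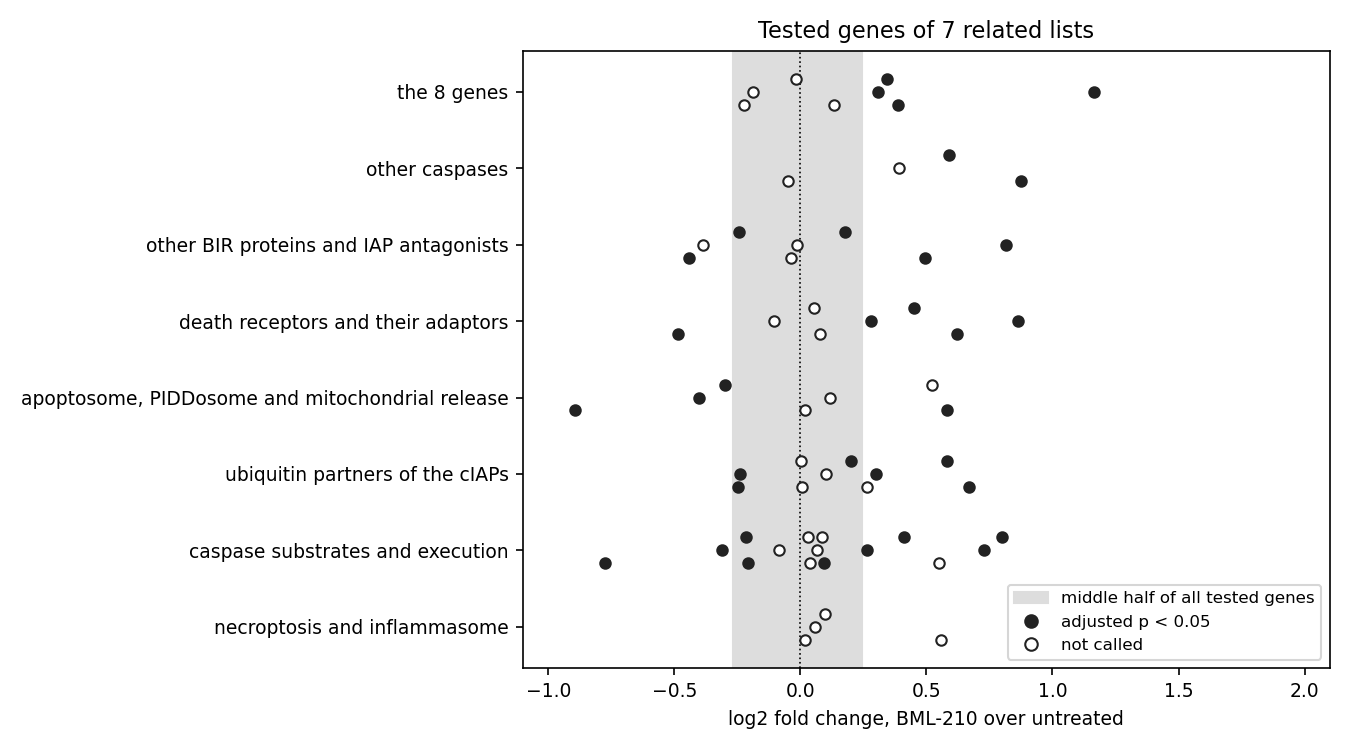
Log2 fold change (x axis) of each tested gene in the 8 members and 7 related lists, filled where the adjusted p was below 0.05, with a grey band for the quartile range of all tested genes (-0.27 to 0.24). Filled points lie on both sides of 0 in 5 of the 7 lists, and Birc3, at 1.16, is the point furthest to the right.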

How the data were processed

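The authors deposited raw read counts per gene, with symbol, Ensembl identifier, exons and exonic length per the file headers. Per the submitters' processing notes the tools were bcl2fastq, STAR 2.5, featureCounts (Subread 1.5.1) and edgeR 3.20.8, with build mm10. The sources used here do not give the settings for strand, multi-mapping and overlaps.

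All 4 libraries were fitted in R 4.3.3 with edgeR 4.0.16: filterByExpr (14455 of 56350 genes kept), TMM, and the quasi-likelihood test (robust=TRUE) on the group, with 2 residual degrees of freedom. Standard errors are the fold change over the square root of F, and 95% intervals use the fit's total degrees of freedom, both approximations. The fit pools spread over genes, so this total can exceed 2, and p-values do not rest on the spread of a single gene alone. A count of 3 equals 0.183 to 0.227 CPM, counting error only, since reads carry no molecular identifiers. Replicate counts differed beyond sampling noise (chi-square over degrees of freedom 2.70 and 1.76, summed over genes) and were kept apart. The common coefficient of variation beyond counting noise, from edgeR, was 2.49%. Steps were tested on simulated data. Shared windows used GENCODE M21 transcripts.

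Members and lists were chosen with earlier results of these data known. Besides the members, text names up to 2 called genes per list and direction by smallest adjusted p, and a few fixed by name, of which Cflar, Apaf1 and Cycs are reported here. Fadd, Fas, Pidd1, Htra2 and Lmna were named after their values were seen. Dfna5 was read as Gsdme. Alternatives were RLE, upper-quartile or no scaling factors, 2 other filters, a replicate block, each library left out, removal of genes over 1% of counts, edgeR's likelihood ratio test, limma-voom (limma 3.58.1) and DESeq2 1.42.0.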

Additional observations from a re-analysis of the deposited data

How the results depend on the processing

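The count of members called was 4 in each of the 14 alternatives, and these were Casp2, Casp8, Birc3 and Xiap each time, since each of those genes was called in all 14. The uncalled Casp6, Casp9 and Htra2 changed sign: Htra2 ranged from -0.089 to 0.012 (BML-210 replicate 2 left out) with 1 library fewer, and without single libraries Casp6 ranged from -0.040 (untreated replicate 1 left out) to 0.30 and Casp9 from -0.14 to 0.10 (BML-210 replicate 1 left out; 0.03 with untreated replicate 1 left out), and Casp9 was 0.00032 with library size only. Over all genes, DESeq2 called 4335 (2205 higher and 2130 lower) where edgeR called 6714, and leaving out single libraries gave 5618 to 5869. Of the 56 tested pathway genes, 31 were called, 21 in DESeq2 and 24 to 28 without single libraries. With the replicate number as a block, 4 members, 32 pathway genes and 6847 genes were called. Same-numbered libraries share only a number: their deviations from the group means correlated at 0.013 across genes. The lowest counts among the members were those of Birc3 (100 to 239), Diablo (121 to 173) and Casp6 (122 to 133). The part of depth in the missing calls was not tested.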
